A study of Mus musculus with 48 samples.

Results

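Mouse epidermis between zeitgeber time 4 and zeitgeber time 8 (ZT4 and ZT8, hours after lights on) is described here from 16 of the 48 RNA-seq libraries of a study of the epidermal day. The 16 were chosen by their labels alone: all 8 libraries of ZT4 and all 8 of ZT8, with both genotype labels included. At each time 4 libraries were labelled ColXIV WT and 4 ColXIV KO, for the collagen XIV gene Col14a1. The mice were 47 weeks old, and the material was epidermis made into a cell suspension and frozen in Trizol, so that the tissue had been taken apart before its RNA was extracted. The labels call the replicates biological but do not say whether each library was 1 animal, and they describe neither the knockout allele nor the sex of the animals. Polyadenylated RNA was made into strand-specific libraries and deposited as whole read counts per gene.

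The mammalian circadian clock is a loop of transcription and repression that runs in most cells of the skin. The activators BMAL1 (gene Arntl) and CLOCK or NPAS2 bind E-box elements and switch on the Period and Cryptochrome genes, whose proteins then repress those activators, while the REV-ERB proteins (Nr1d1, Nr1d2) and the ROR proteins compete over the Arntl promoter. Output genes such as Dbp carry the rhythm further through D-box elements. In mouse epidermis the clock is known to gate the division of keratinocyte stem and progenitor cells, with DNA synthesis and mitosis falling at different hours.

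The 16 libraries held 38 M to 42.8 M reads in genes, and 16526 of 27179 listed genes passed the filter on low counts. The keratinocyte markers Krt5, Krt14, Krt10, Krt1, Trp63 and Lor were all present, and none of them passed the test between the times. Krt5, a basal keratin, had a median of 10346 CPM (read counts per 1e6, scaled by TMM) at ZT4 and 10309 at ZT8, and Krt10, a suprabasal keratin, had 15469 and 14304. Each library expressed either Xist or Y-linked genes, with Xist in 3 of 8 libraries at ZT4 and in 4 of 8 at ZT8. Of the variance, 28.9% lay on a first principal component that separated these types of library, and 14.6% on a second component that separated the times. Col14a1 went against the genotype labels, with 45.3 to 79.9 CPM in the libraries labelled KO and 0.259 to 2.46 CPM in those labelled WT. No direction below is therefore drawn from a genotype label. In 2 libraries labelled WT at ZT4, replicates 3 and 4, the predicted gene Gm5481 stood at 9.59 and 14 CPM, nearer to the 16.8 to 28.5 CPM of the libraries labelled KO than to the other libraries labelled WT, which had at most 0.194.

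Between ZT4 and ZT8, 1557 genes changed (9.42% of the genes tested), 901 of them higher at ZT8 (5.45%) and 656 lower (3.97%). The test was edgeR's quasi-likelihood test with the genotype label as covariate and Benjamini-Hochberg adjustment over all genes, called under 0.05. An unadjusted p under 0.05 was reached by 4038 genes. Most changes were small: the median size among the called genes was 0.31 on the log2 scale, and 113 genes changed by more than 1, 69 of them upward. For 326 genes (1.97%) the 8 libraries of ZT8 did not overlap the 8 of ZT4, with 197 higher (1.19%) and 129 lower (0.781%). The median log2 fold change of all genes tested was -0.001. Among the 6 steps between neighbouring times of the day, which share libraries, the other 5 called 271 to 1485 genes in fits of the same kind. Without replicates 3 and 4 labelled WT at ZT4 the count of called genes was 1096.

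Steps within each genotype label were taken from 1 fit of all 16 libraries, which share an estimate of the spread. The contrast within the WT label called 279 genes (1.69%) and that within the KO label 446 (2.7%). Of these, 158 were called under both labels, which is 56.6% of the former and 35.4% of the latter, and all 158 had the same sign. These counts depend on single libraries and on the tool: that of the KO label was 192 without replicate 3 labelled KO at ZT4 and 822 without replicate 1 labelled WT at ZT4, that of the WT label was 164 without replicate 4 labelled WT at ZT8, and DESeq2 gave 842 for the KO label and 573 for the WT label. The overlap was not recomputed in these fits. The sign under the KO label matched for 278 of the 279 genes called under the WT label, and the sign under the WT label matched for 428 of the 446 called under the KO label. A test of the difference between the 2 steps called 0 genes (0%) by edgeR, with 476 at an unadjusted p under 0.05, 10 genes by DESeq2 and 0 by limma-voom.

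The repressor arm of the clock rose through midday: 9 of its 10 measured genes were higher at ZT8, with a median log2 fold change of 1.42. In 8 of them the libraries of the 2 times did not overlap. The shares of all genes tested were 5.45% called higher and 1.19% higher without overlap. Per2, which encodes a protein that represses CLOCK and BMAL1, ran from 3.14 to 8.41 CPM at ZT4 (median 4.83) and from 23 to 46.9 CPM at ZT8 (median 33.5). The lowest library of ZT8 was well above the highest of ZT4. The log2 fold change of Per2 was 2.7 ± 0.23 (SE, n = 8 libraries a time; edgeR, adjusted p = 4.23e-06), with 2.63 ± 0.33 under the WT label and 2.77 ± 0.34 under the KO label. Per3 moved from 22.6 to 43.3 CPM (median 31.2) up to 99.4 to 149 CPM (median 121), again without overlap. Its step was 1.89 ± 0.13 (edgeR, adjusted p = 1.96e-07). Per1, the Period gene that also answers to acute stimuli, ran from 22.2 to 75.3 CPM at ZT4 and from 75.8 to 214 at ZT8, so that the groups only just failed to meet.

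**Figure D1:**
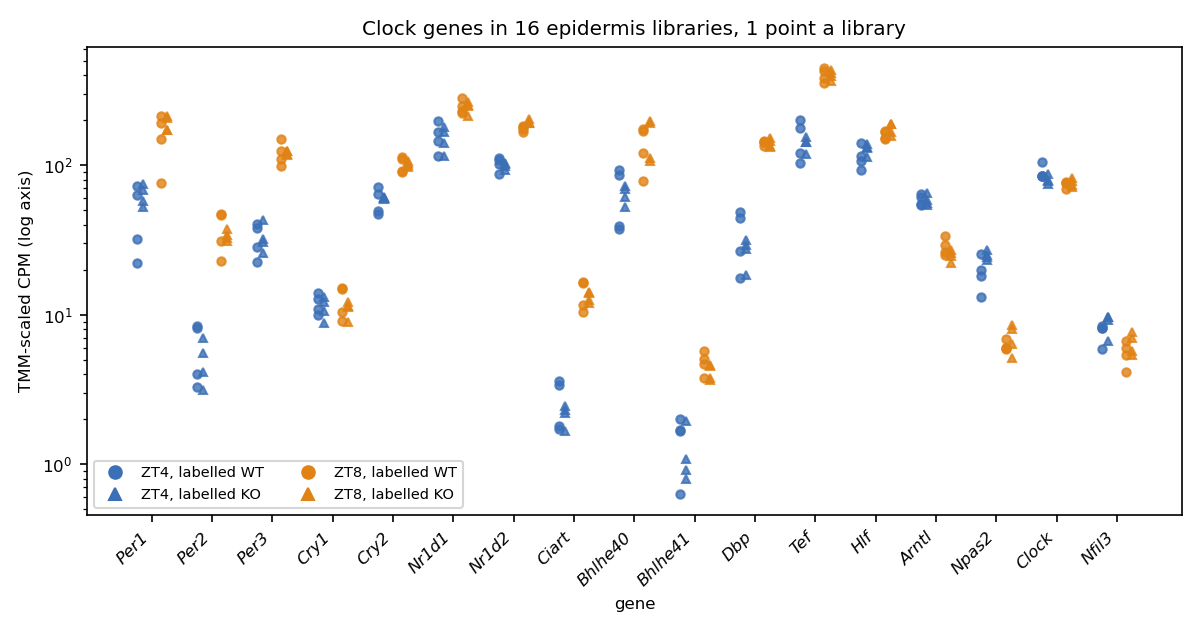
TMM-scaled CPM of 17 clock genes on a log axis, 1 point a library, with ZT4 in blue, ZT8 in orange, circles for libraries labelled WT and triangles for those labelled KO. Per2, Ciart, Dbp and Tef lie clear of their ZT4 values at ZT8, Arntl and Npas2 lie clear below them, and Cry1 and Clock overlap.

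Ciart, which encodes the repressor CHRONO, had 1.66 to 3.6 CPM at ZT4 (median 2.26) and 10.5 to 16.6 CPM at ZT8 (median 13.2). No library of ZT8 came near those of ZT4, and the log2 fold change was 2.49 ± 0.16 (edgeR, adjusted p = 8.22e-08). Bhlhe41 and Bhlhe40, which encode the E-box repressors DEC2 and DEC1, rose by 1.74 ± 0.20 and 1.18 ± 0.24, the latter with overlap between 37.2 to 93 CPM at ZT4 and 78.7 to 199 CPM at ZT8. Among the REV-ERB genes, Nr1d2 went from 87.4 to 111 CPM (median 102) to 167 to 203 CPM (median 187). This narrow spread gave a step of 0.88 ± 0.05 (edgeR, adjusted p = 3.26e-08), the smallest p of all genes tested. Nr1d1 rose by 0.67 ± 0.10 and Cry2 by 0.78 ± 0.07, neither with overlap. Cry1 was the exception among the repressors: it had 8.81 to 14 CPM at ZT4 and 8.9 to 15 CPM at ZT8, with a log2 fold change of 0.01 ± 0.12 (edgeR, adjusted p = 0.975).

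The promoter of Ciart is shown because it holds 3 copies of the E-box CACGTG, the element of the clock activators, and that of Per3 because it holds 2 copies of the D-box TTATGTAA, the element bound by DBP, TEF, HLF and NFIL3. Each window runs from 250 bases before to 50 bases after the annotated start, from RefSeq on GRCm38.p6, written 5′ to 3′ on the gene's strand with the motif in capitals. Ciart lies at chr3:95882179-95882478 on the minus strand and Per3 at chr4:151044616-151044915 on the minus strand.
Ciart: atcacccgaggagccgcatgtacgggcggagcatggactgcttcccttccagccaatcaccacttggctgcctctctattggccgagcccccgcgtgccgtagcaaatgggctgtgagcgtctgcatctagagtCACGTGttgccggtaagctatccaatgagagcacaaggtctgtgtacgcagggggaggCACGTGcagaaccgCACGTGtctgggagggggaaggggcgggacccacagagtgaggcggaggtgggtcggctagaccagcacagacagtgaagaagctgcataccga
Per3: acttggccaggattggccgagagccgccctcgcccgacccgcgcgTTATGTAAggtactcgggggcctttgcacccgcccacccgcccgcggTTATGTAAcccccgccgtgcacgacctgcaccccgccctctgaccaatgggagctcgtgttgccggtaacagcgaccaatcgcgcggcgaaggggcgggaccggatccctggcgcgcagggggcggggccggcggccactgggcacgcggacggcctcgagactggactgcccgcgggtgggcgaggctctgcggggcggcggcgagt
Both strands were searched. CACGTG stood in 9.38% of 15049 windows of tested genes and in 4 of 9 windows of 8 repressor genes, and TTATGTAA in 0.532% of all windows. These are counts of letters and not of bound sites.

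The activator arm went the other way in part. Arntl, the gene of BMAL1, ran from 53.8 to 65.3 CPM at ZT4 (median 57.1) and from 22.1 to 33.4 CPM at ZT8 (median 26). Its libraries at ZT8 all lay below those at ZT4, and it fell by 1.13 on the log2 scale, with an SE of 0.07 (edgeR, adjusted p = 3.27e-08). Npas2, a partner of BMAL1, went from 13.2 to 27.2 CPM to 5.17 to 8.49 CPM, a step of -1.73 ± 0.12 (edgeR, adjusted p = 1.63e-07). Clock gave -0.17 ± 0.06 (adjusted p = 0.0727 by edgeR) and Rora 0.05 ± 0.05, neither past the threshold. The Arntl window at chr7:113207261-113207560 on the plus strand is printed because it holds the core TAGGTCA that ROR and REV-ERB proteins read, in capitals here; 1.97% of all windows held these letters.
Arntl: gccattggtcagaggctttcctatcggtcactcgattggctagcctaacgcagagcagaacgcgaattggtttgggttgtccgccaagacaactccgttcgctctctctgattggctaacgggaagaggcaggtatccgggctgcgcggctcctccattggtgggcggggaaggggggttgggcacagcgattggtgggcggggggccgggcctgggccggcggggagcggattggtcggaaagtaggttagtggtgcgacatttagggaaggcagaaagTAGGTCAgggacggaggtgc

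Of 9 output genes and modulators of the clock, 3 rose, 1 fell and 5 did not pass, beside 5.45% called higher and 3.97% called lower among all genes. Dbp, the classical D-box activator driven by the clock, had 17.6 to 48.6 CPM at ZT4 (median 28.4) and 133 to 151 CPM at ZT8 (median 143), a step of 2.22 ± 0.18 (edgeR, adjusted p = 2.99e-06). Its relatives Tef and Hlf rose by 1.47 ± 0.11 and 0.47 ± 0.07, without overlap. Nfil3, which represses through the same element, fell by 0.46, with an SE of 0.11. Csnk1e, a kinase of the Period proteins, gave 0.18 ± 0.05 (edgeR, adjusted p = 0.0501), and Usp2, Fbxl21 and Csnk1d lay between 0.03 and 0.24 with adjusted p of 0.214 or more.

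Genes of DNA replication and genes of mitosis moved in opposite directions over the same 4 h. Of 22 genes active in S phase, 18 were higher at ZT8 and 0 lower, with a median of 0.42. Of 22 genes of G2 and M phase, all 22 were lower, with a median of -0.66. In 10 of the S phase genes and in 16 of the G2 and M genes the libraries of the 2 times did not overlap. Among all genes 5.45% were called higher and 3.97% lower, and 1.19% were higher and 0.781% lower without overlap. In bulk RNA of this kind, a change in the share of cells in a phase and a change in RNA per cell cannot be told apart.

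Mcm2, a subunit of the helicase that opens replication origins, had 23.9 to 35.7 CPM at ZT4 (median 32.3) and 42.8 to 60.8 CPM at ZT8 (median 51.1). It rose by 0.71 ± 0.08 (edgeR, adjusted p = 2.16e-05), with 0.60 ± 0.11 and 0.81 ± 0.11 under the WT and KO labels. Its partners Mcm3, Mcm4 and Mcm5 rose by 0.59 ± 0.07, 0.48 ± 0.05 and 0.61 ± 0.08. Gins2, of the same replication machinery, rose by 0.64 ± 0.07, and Cdt1 and Cdc6, which load the helicase, by 0.72 ± 0.10 and 0.65 ± 0.10. The members that did not pass included the nucleotide synthesis genes Rrm1, Rrm2 and Tyms, at 0.02, -0.02 and 0.02, and Mcm7 at 0.16 ± 0.06. Among G1 genes, E2f1, the activator of the S phase programme, went from 5.14 to 7.82 CPM to 9.86 to 13.8 CPM, a step of 0.92 ± 0.08 (edgeR, adjusted p = 2.34e-06). Ccnd2 and Ccnd1, the D-type cyclins, rose by 0.74 ± 0.09 and 0.67 ± 0.10, also without overlap. Of 17 G1 cyclins and cell cycle brakes, 6 rose and 1, Cdkn2b, fell, beside 5.45% called higher and 3.97% called lower among all genes.

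Cenpf, a kinetochore protein, had 47.6 to 58.1 CPM at ZT4 (median 51.1) and 23.4 to 33.1 CPM at ZT8 (median 27.4). It fell by 0.87 on the log2 scale, with an SE of 0.06 (edgeR, adjusted p = 2.79e-07). Nusap1 and Kif11, which organise the spindle, had steps of -0.91 ± 0.09 and -0.85 ± 0.08, and Tpx2, which activates Aurora A kinase, -0.70 ± 0.06. Ccnb1, Ccnb2 and Cdk1, the cyclins and the kinase that drive entry into mitosis, had steps of -0.75, -0.64 and -0.60. Mki67, a general mark of cycling cells, was lower as well, by -0.52 ± 0.08, with overlap between its libraries.

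**Figure D2:**
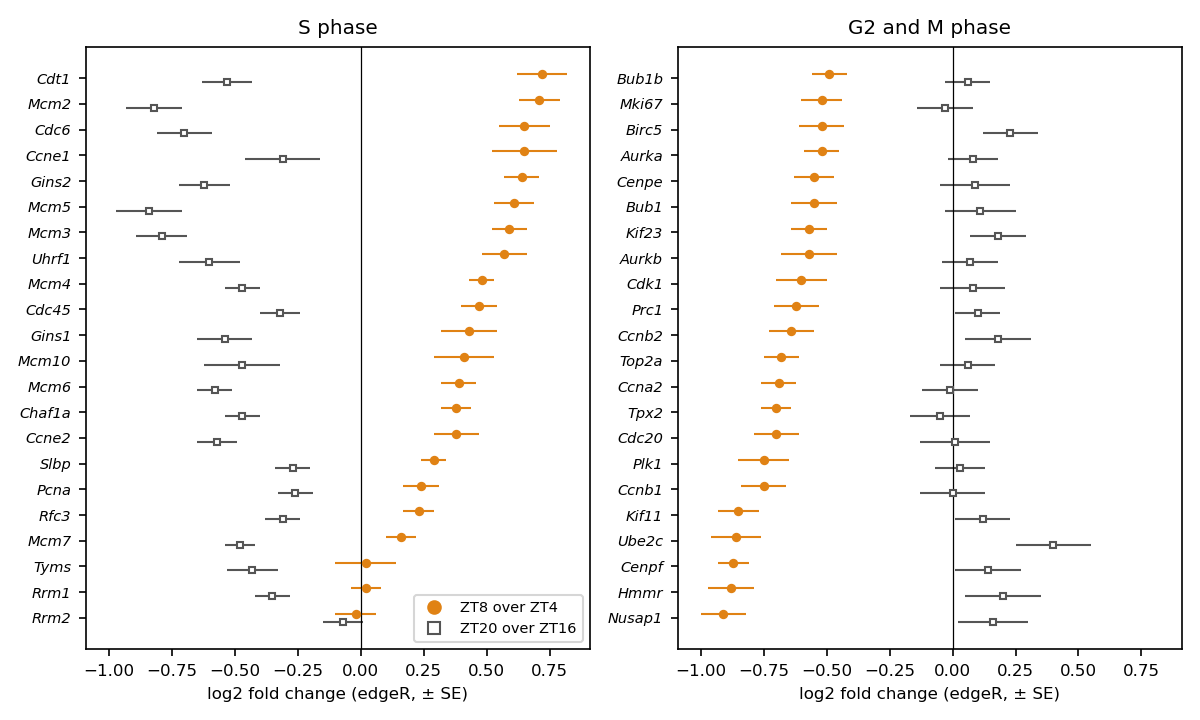
Log2 fold changes with their standard errors for the 22 measured genes of S phase and the 22 of G2 and M phase, for ZT8 over ZT4 in orange and for ZT20 over ZT16, in 16 other libraries, in grey. The 18 S phase genes called at midday lie above 0 at midday and below 0 at night, and Rrm2 is below 0 in both steps. The G2 and M genes are below 0 at midday and near 0 at night.

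The promoters of Cdk1 and Ccnb2 are shown for the elements that mark this gene class, the CHR TTTGAA and the CCAAT box, in capitals on either strand. They lie at chr10:69352863-69353162 and chr9:70421505-70421804, both on the minus strand, from RefSeq on GRCm38.p6.
Cdk1: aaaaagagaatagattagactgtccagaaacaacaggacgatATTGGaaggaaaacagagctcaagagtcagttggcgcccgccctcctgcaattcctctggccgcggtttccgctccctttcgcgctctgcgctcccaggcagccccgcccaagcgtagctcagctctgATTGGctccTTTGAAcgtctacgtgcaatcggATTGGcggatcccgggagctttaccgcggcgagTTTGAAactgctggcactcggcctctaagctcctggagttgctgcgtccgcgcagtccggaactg
Ccnb2: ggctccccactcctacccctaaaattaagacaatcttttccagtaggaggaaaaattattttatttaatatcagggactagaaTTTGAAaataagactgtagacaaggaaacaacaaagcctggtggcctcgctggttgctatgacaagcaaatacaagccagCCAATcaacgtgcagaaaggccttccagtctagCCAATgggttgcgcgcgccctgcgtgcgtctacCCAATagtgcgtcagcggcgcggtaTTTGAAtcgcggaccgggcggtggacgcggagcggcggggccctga
TTTGAA stood in 15 of 20 windows of G2 and M genes (75%), in 2 of 20 windows of S phase genes and in 12.6% of all 15049 windows. Over the called genes it stood in 23.1% of 598 windows of genes lower at ZT8 and in 8.81% of 874 windows of genes higher at ZT8. CCAAT stood in 18 of 20 windows of G2 and M genes, 16 of 20 of S phase genes and 37.5% of all. The E2F letters TTTGGCGC, TTTCCCGC, TTTCGCGC or TTTGCCGC stood in 8 of 20 windows of S phase genes, 1 of 20 of G2 and M genes and 3.58% of all.

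Immediate early genes, which keratinocytes and other cells switch on within minutes of a stimulus, made up the next group. Of 24 measured genes of this list, 18 rose and 0 fell, beside 5.45% called higher and 3.97% called lower among all genes. All 24 had a positive fold change, and the median was 0.79. Nr4a1, an orphan nuclear receptor, had 81.3 to 280.1 CPM at ZT4 (median 157) and 150.4 to 774 CPM at ZT8 (median 553). It rose by 1.69 ± 0.33 (edgeR, adjusted p = 0.00545), and its relative Nr4a3 by 2.13 ± 0.50. Fosl1, a subunit of the transcription factor AP-1, had 2.17 to 6.2 CPM at ZT4 (median 4.72) and 2.36 to 31 CPM at ZT8 (median 16.4), a step of 1.94 ± 0.44 (edgeR, adjusted p = 0.0138). Zfp36, which destabilises inflammatory mRNA, rose by 1.04 ± 0.21, Ier3 by 1.17 ± 0.22, the transcription factor gene Egr2 by 0.89 ± 0.15 and the phosphatase gene Dusp5 by 0.62 ± 0.12. Fos rose by 0.91 ± 0.22. The CArG box, the element read by serum response factor, stood in 6 of 26 promoter windows of this list (23.1%) and in 1.29% of all windows.

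In none of the 24 did the libraries of the 2 times separate fully. Levels of some of these genes also differed by sex-linked type within a time. Zfp36 at ZT4 had 436 to 652 CPM in libraries with Xist and 738 to 1039.8 CPM in those with Y-linked expression. At ZT8 it had 938 to 1619 and 1691 to 2218 CPM. Nr4a1 and Fosl1 overlapped between the types at ZT8. The part of sex-linked type was not tested. For the genes named next, 1 library with Xist accounted for much of the overlap between the times. Replicate 1 labelled WT at ZT8 had the lowest value of its time in Nr4a1, Nr4a3, Fosl1, Zfp36 and Ier3. The other 7 libraries of ZT8 had 6.75 to 31 CPM of Fosl1, all above ZT4. Without that replicate 22 of the 24 genes were called, and without replicates 3 and 4 labelled WT at ZT4, 14 were. Genes known to be induced when tissue is taken apart were a list of 15. Most of them are also on the immediate early list, so the lists are not separate measurements. Of the 15, 13 rose, beside 5.45% called higher among all genes, and the median was 0.91. Hspa1a and Hspa1b, at -0.16 each, did not pass. The summed level of the 15 was 7192 to 15162 CPM at ZT4 and 10899 to 26135 CPM at ZT8.

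The hours of the day set these groups apart. Levels at all 6 times of the study, scaled over its 48 libraries, put the clock repressors highest at ZT12, the S phase genes highest at ZT12 and ZT16, and the G2 and M genes highest at ZT0 and lowest at ZT12. The called genes were chosen by their step from ZT4 to ZT8, which partly fixes the hours counted next. Of the 901 genes that rose, 452 had their highest mean at ZT12 and 287 at ZT8, beside 2693 and 2219 of 14969 genes not called. Lowest means fell at ZT4 for 522 of the 901 and at ZT16 for 225, beside 2775 and 2754 of the genes not called. Of the 656 that fell, 304 were highest at ZT4, 194 highest at ZT0 and 349 lowest at ZT12. Among the genes not called these numbers were 2900, 2205 and 2885. The immediate early genes instead followed a course with 2 troughs. The median of their 24 levels, relative to each gene's mean over the day, was -0.53 at ZT4 and -0.58 at ZT16, and 0.33, 0.29, 0.30 and 0.26 at ZT0, ZT8, ZT12 and ZT20. For Nr4a1 the medians were 158 CPM at ZT4 and 142 CPM at ZT16, against 693, 554, 625 and 542 CPM at ZT0, ZT8, ZT12 and ZT20.

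**Figure D3:**
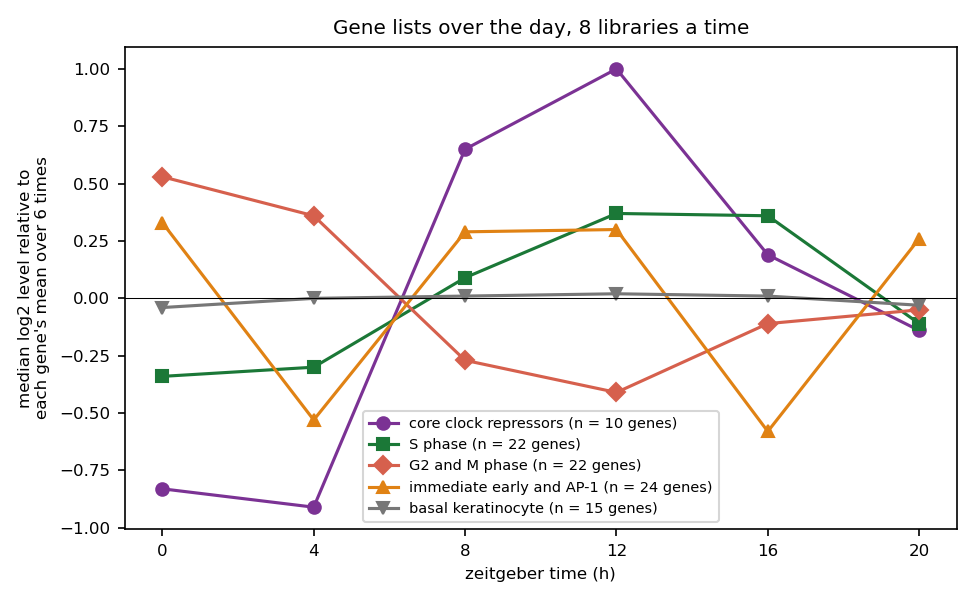
Median log2 level of 5 gene lists at 6 zeitgeber times, relative to each gene's mean over the times, with 8 libraries a time; lines join the medians. Clock repressors, S phase and G2 and M genes have 1 rise and fall in the day, immediate early genes are low at both ZT4 and ZT16, and basal keratinocyte genes stay near 0.

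The step 12 h later, from ZT16 to ZT20, is measured in 16 libraries that the midday step does not use, so the same genes could be read again. It called 907 of 16493 genes (5.5%), 450 of them higher at ZT20 and 457 lower. Of the 907, 299 were also called at midday, which is 19.2% of the midday calls and 33% of the night calls. Of the 299, 198 changed in the same direction in both steps and 101 in opposite directions. In a fit of the 32 libraries the difference between the 2 steps was called for 729 genes (4.31%) and their sum for 2840 genes (16.8%). Of the 1557 midday genes, 438 passed for the difference and 984 for the sum, 134 of them for both and 269 for neither. These genes were chosen by their midday step, which enters both the difference and the sum.

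Most clock repressor and S phase genes moved the other way at night. The counts here stand beside 450 genes called higher and 457 called lower of 16493 at night, and 4.31% of genes called for the difference. Among the clock repressors 6 fell from ZT16 to ZT20 and none rose, with a median of -0.88, and the difference between the steps passed for 8 of 10. Nr1d2 went by 0.88 at midday and by -0.93 ± 0.17 at night (edgeR, adjusted p = 0.00608), and Ciart by 2.49 and -1.32 ± 0.16. Arntl, lower at ZT8, was higher at ZT20 by 0.94 ± 0.11. Of the S phase genes 19 fell at night and 0 rose, with a median of -0.48, and the difference passed for 20 of 22. Mcm2 went by 0.71 at midday and by -0.82 ± 0.11 at night. The G2 and M genes were not called at night in either direction, with a median of 0.09, while the difference passed for all 22. Among the genes called at midday, the sum of both steps passed for 984 of 1557 in all, and it holds the midday step by which they were chosen. The sum passed for 19 of 22 G2 and M genes, 7 of 9 clock repressors and 0 of 18 S phase genes.

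**Figure D4:**
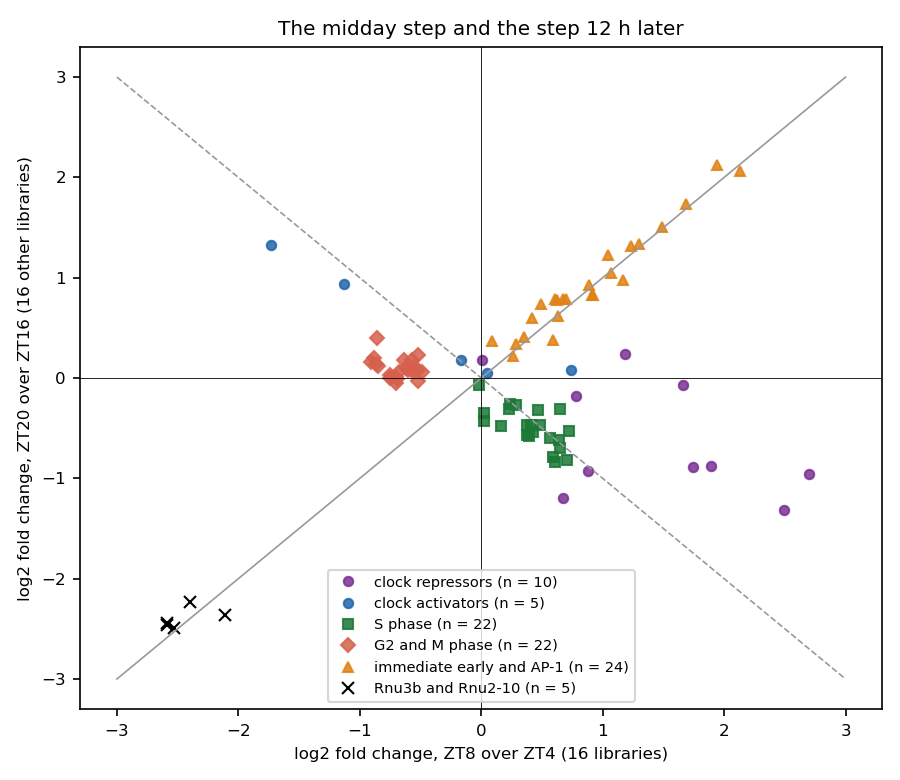
Each point is a gene, with its log2 fold change from ZT4 to ZT8 (16 libraries) on the horizontal axis and from ZT16 to ZT20 (16 other libraries) on the vertical axis; the full line marks equal steps and the dashed line opposite steps. Immediate early genes and the Rnu3b and Rnu2-10 genes lie along the full line, S phase genes near the dashed line, and G2 and M genes near 0 on the vertical axis.

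Immediate early genes repeated. At night 21 of the 24 rose and 0 fell, beside 450 and 457 of all 16493 genes tested. The median was 0.81 at night and 0.79 at midday. In both steps 17 were called in the same direction, and the difference between the steps passed for 0 of 24. Nr4a1 rose by 1.69 ± 0.33 at midday and 1.73 ± 0.33 at night, Fosl1 by 1.94 and 2.12 ± 0.41, and Fos by 0.91 and 0.83 ± 0.19. The list of genes induced by taking tissue apart had medians of 0.91 and 0.83. Most of its genes are on the immediate early list as well, and 13 of 15 were called in both steps. The labels give no day or batch of tissue preparation, so that an hour of the day and the sessions in which the mice were handled cannot be told apart here. Sebaceous gland genes, 10 in number and none called in either step, had medians of 0.53 at midday and 0.92 at night, and their part in these steps was not tested.

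Several of the largest midday changes followed this repeated course too. Rnu3b1 to Rnu3b4, copies of the U3 small nucleolar RNA gene within chr11:87443237-87471582 (GRCm38.p6), had the largest falls among called genes averaging 1 CPM or more, predicted genes left out. Rnu3b2 had 2.03 to 4.14 CPM at ZT4 and 0.0989 to 0.945 CPM at ZT8, a step of -2.59 ± 0.26 (edgeR, adjusted p = 8.63e-06), and a step of -2.46 ± 0.24 at night. The 4 copies are near-identical and the deposited counting may split reads among them, so they count as 1 observation, and U3 RNA is not polyadenylated as a rule, whereas the kit selects polyadenylated RNA. Rnu2-10, a gene of the U2 spliceosomal RNA, had steps of -2.11 ± 0.25 and -2.36 ± 0.27. Slc10a1, a bile acid transporter known from liver, had 0.364 to 0.845 CPM at ZT4 and 1 to 2.86 CPM at ZT8, rising by 1.76 ± 0.20 at midday and 1.96 ± 0.21 at night. At all 6 times Slc10a1 stayed at or below 0.848 CPM in the 16 libraries of ZT4 and ZT16 and at or above 1.01 CPM in the other 32. Mir24-2, Mir27a and Mir3074-2, annotated within chr8:84208672-84208921, rose by 2.08, 2.06 and 2.11 at midday and by 2.34, 2.17 and 2.31 at night. Mir24-2 and Mir3074-2 overlap, and long-RNA libraries count a host transcript there and not mature miRNAs, so these values are uncertain for each name.

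**Figure D5:**
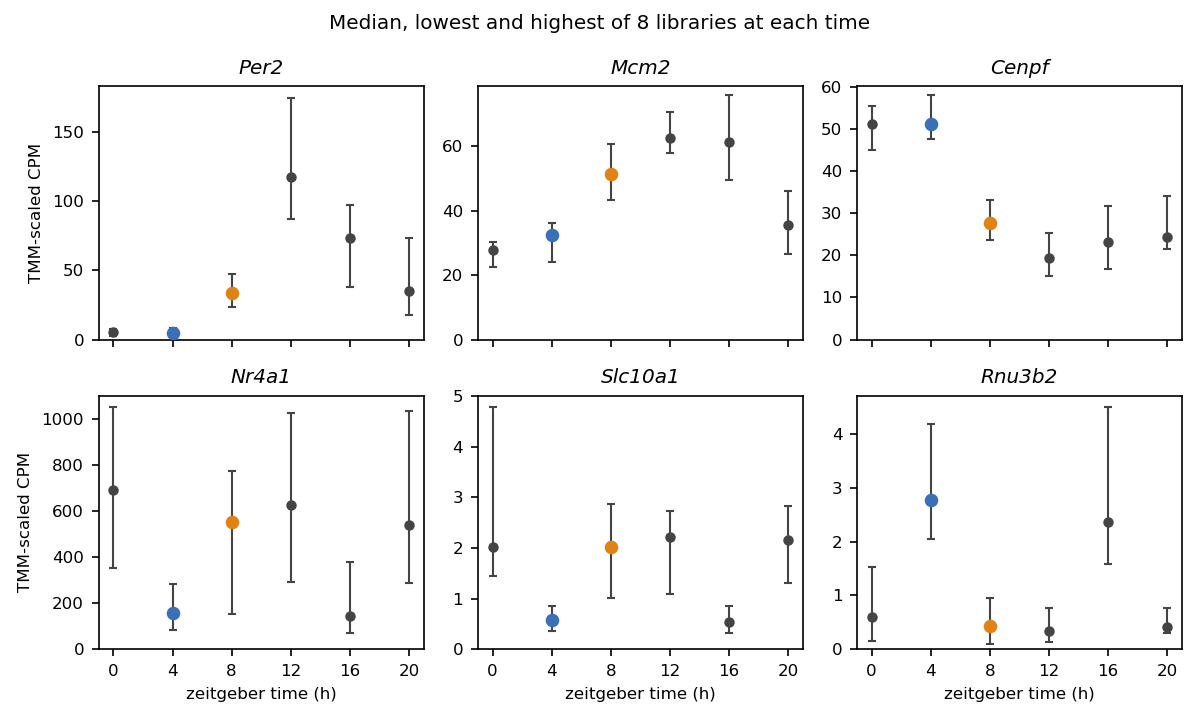
TMM-scaled CPM of 6 genes at 6 zeitgeber times; points are medians of 8 libraries and bars run from the lowest to the highest library, with ZT4 in blue and ZT8 in orange. Per2, Mcm2 and Cenpf have 1 high and 1 low stretch in the day, whereas Nr4a1 and Slc10a1 are low and Rnu3b2 is high at both ZT4 and ZT16.

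Other genes named by size of change were fewer and lower in level. Fam71a rose by 2.93 ± 0.60 from 0.0935 to 1.88 CPM up to 0.886 to 11.9 CPM, and by 2.53 ± 0.52 at night. Plin4, which encodes a lipid droplet coat protein, rose by 2.25 ± 0.42, and Ccno, a cyclin relative, by 1.74 ± 0.28. Among the falls, Ttc9 went from 37.2 to 56.4 CPM to 17.1 to 25.1 CPM, a step of -1.14 ± 0.10 (edgeR, adjusted p = 2.62e-06), and was higher by 0.62 ± 0.13 at night. Spon2, an extracellular matrix protein, and Zc3h12c, an mRNA-binding nuclease, had midday steps of -0.97 ± 0.17 and -0.94 ± 0.19 and night steps of 0.47 ± 0.30 and 0.11 ± 0.20. Zc3h12c overlapped, with 11.2 to 31.7 CPM at ZT4 and 6.09 to 11.8 CPM at ZT8. Its mean went from 23.6 to 9.1 CPM under the KO label and from 13.5 to 9.46 CPM under the WT label. For Ttc9, Spon2 and Zc3h12c the difference between the steps passed (edgeR, adjusted p = 2.88e-08, 0.0175 and 0.00663). Serpinb12, a serpin, and Sprr2b, a cornified envelope precursor, had -1.15 ± 0.28 and -1.17 ± 0.26 at midday, both with overlap. At night they had 0.20 ± 0.44 and -0.64 ± 0.34, without a called difference between the steps. Mean Sprr2b went from 6.49 to 1.93 CPM under the KO label and from 2.85 to 1.91 CPM under the WT label. By edgeR no difference between the labels was called for Zc3h12c or Sprr2b. Ear1, Ear2 and Ear10, ribonucleases of eosinophils, had midday steps of -1.27, -1.12 and -1.15, all with overlap between the times. Mean Ear2 went from 9.52 CPM at ZT4 to 3.17 at ZT8 under the KO label and from 4.64 to 3.01 under the WT label. Night steps of Ear1, Ear2 and Ear10 were -1.18, -1.25 and -1.37, not called on their own. The differences between the steps were not called (edgeR, adjusted p = 0.974, 0.944 and 0.908), and the sums of both steps were (edgeR, adjusted p = 0.000672, 0.00193 and 0.00116). They are members of a near-identical family and their counts are uncertain.

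Protein folding in the endoplasmic reticulum was another group with more falls than rises. Of 22 genes of the unfolded protein response, 2 rose and 9 fell, with a median of -0.15. The counts in this paragraph stand beside 5.45% called higher and 3.97% called lower among all genes. The chaperones and folding enzymes Pdia6, Calr and Hsp90b1 had steps of -0.41 ± 0.06, -0.37 ± 0.06 and -0.44 ± 0.08. Pdia6 had 136 to 170.1 CPM at ZT4 and 96.6 to 124 CPM at ZT8, without overlap. Atf4, a transcription factor of the stress response, rose by 0.59 ± 0.09 at midday and 0.68 ± 0.09 at night. Of 20 heat shock genes 1 rose, Dnajb1 by 0.65 ± 0.17, and 4 fell, among them Hsph1 by -0.36 ± 0.08, and 2 of 7 cold-inducible genes rose, Tra2a and Srsf2, by 0.25 and 0.21.

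Of 16 genes induced by glucocorticoids, 6 rose and 0 fell, beside 5.45% called higher and 3.97% called lower among all genes. Tsc22d3, a classical target of the glucocorticoid receptor, had 51.5 to 79.1 CPM at ZT4 (median 60.8) and 77 to 114 CPM at ZT8 (median 103), a step of 0.64 ± 0.10 (edgeR, adjusted p = 0.000414). Klf9 and Mt1 rose by 0.55 ± 0.09 and 0.55 ± 0.13. Dusp1, which is also on the immediate early list, rose by 0.92 ± 0.22. Klf9 gave -0.08 ± 0.11 at night, and the difference between its steps passed (edgeR, adjusted p = 0.00534).

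Among metabolic genes the calls were spread over several lists, and their counts stand against the 9.42% called among all genes. Of 17 genes of fasting and fatty acid oxidation 2 rose, Pdk4 and Acaa2, and 2 fell, Acadl and Hadhb, by -0.31 and -0.17. Of 17 genes of fatty acid synthesis Gpam rose, by 0.44 ± 0.06 and without overlap, and of 23 genes of cholesterol synthesis and uptake Insig1 rose, by 0.43 ± 0.10. None of 20 genes of barrier ceramide synthesis and none of 24 nuclear genes of oxidative phosphorylation was called, with medians of -0.06 and -0.07. Of 16 glycolysis genes Pfkp fell, by -0.34 ± 0.09, with a median of -0.27 over the list. Sirt1, an NAD-dependent deacetylase, rose by 0.29 ± 0.06 and was the only call among 11 genes of NAD salvage and heme, and Srxn1, with a step of -0.21 ± 0.06, the only call among 21 NRF2 genes.

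Lists of the keratinocyte layers held 3 called genes in all, beside the 9.42% called among all genes. Of 15 basal keratinocyte genes Dst, a hemidesmosomal linker, rose by 0.35 ± 0.08. Of 28 genes of spinous and granular differentiation 2 fell. Ivl, which encodes involucrin, went from 99.1 to 142 CPM (median 119.8) to 55.1 to 95.9 CPM (median 78.3), a step of -0.62 ± 0.09 (edgeR, adjusted p = 0.000452). Rptn, a cornified envelope protein, had -0.72 ± 0.19. None of 15 stress and wound keratinocyte genes was called, Krt17 at 0.07 ± 0.08 and Krt6a at -0.04 ± 0.07.

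Most of the signalling genes called were higher at ZT8, as were 901 of the 1557 genes called in all. Their counts stand beside 5.45% called higher and 3.97% called lower among all genes. Of 21 YAP and TAZ targets 3 rose, among them Ccn2, a matricellular protein, from 24.8 to 38.3 CPM to 41 to 66 CPM, by 0.74 ± 0.10 (edgeR, adjusted p = 0.000164). Of 22 TGF-beta and BMP genes 4 rose, among them Bmp7 by 0.31 ± 0.07, and 1 fell. Of 23 Wnt genes Rnf43, Lgr6 and Tcf7l2 rose, by 0.31, 0.44 and 0.28, and of 12 Notch genes Jag1, Jag2 and Lfng, by 0.29, 0.29 and 0.22. Of 14 EGF receptors and ligands the ligand gene Areg rose by 1.45 ± 0.28, and the feedback inhibitors Lrig1 and Errfi1 by 0.34 and 0.33. Areg rose by 1.38 ± 0.27 at night as well. Of 14 transport and hydration genes Slc6a6, a taurine transporter, rose by 0.78 ± 0.12 without overlap, and Aqp3 and Trpv3 by 0.36 and 0.28.

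Of 18 inflammation genes 3 rose and 4 fell. This count and the next 2 stand beside 5.45% called higher and 3.97% called lower among all genes. Nfkbia, the inhibitor that NF-kappa-B induces, rose by 0.80 ± 0.18, while the cytokine gene Il33, the chemokine gene Ccl20 and the receptor antagonist gene Il1rn had steps of -0.60 ± 0.12, -0.77 ± 0.16 and -0.35 ± 0.07. Of 27 interferon response genes Mx2 fell, by -0.53 ± 0.14, with a median of -0.13 over the list. Of 15 genes of nucleotide excision repair 2 rose and 1 fell, Ddb2 and Ercc6 by 0.25 and 0.15 and Cetn2 by -0.24.

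Counts for markers of other cell types stand against the same share of all genes. None was called among 15 fibroblast and dermis genes (summed level 177 to 280.3 CPM at ZT4 and 155 to 243 CPM at ZT8), 11 Langerhans and dendritic cell genes (444 to 729 and 284 to 584 CPM), 13 T cell genes (141 to 262 and 77.1 to 210.4 CPM), 10 sebaceous gland genes (620.1 to 1093 and 655 to 1142 CPM), 5 endothelial and pericyte genes, 2 neutrophil and mast cell genes and 9 of muscle, adipocytes, erythrocytes and nerve. The 16 genes of the anagen hair shaft had a median of -1.25 with 0 called, on sums of 28.3 to 364 CPM at ZT4 and 35.2 to 115 CPM at ZT8. Of 12 hair follicle stem cell and outer root sheath genes 3 rose, Lgr6, Lhx2 and Fst, by 0.44, 0.32 and 0.24. Of 8 macrophage and monocyte genes Cd68 rose by 0.92 ± 0.21, while the other 7 had steps below 0 that did not pass, among them Adgre1 at -0.74 ± 0.25 and Lyz2 at -0.71 ± 0.38. The median of that list was -0.45, and its summed level was 21.9 to 42.2 CPM at ZT4 and 10.6 to 33.8 CPM at ZT8. Of 6 melanocyte genes Pmel and Mitf rose by 0.16 and 0.26. None of 10 mitochondrially encoded genes was called, with a median of -0.03, nor any of 5 sex-linked genes.

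The 5 genes with the smallest p for a difference between the genotype labels did not pass it. Entpd4 and Entpd4b, near-identical copies of a nucleotide-hydrolysing enzyme gene on chromosome 14, had steps of 1.04 ± 0.12 and 1.05 ± 0.12 under the KO label and of 0.05 ± 0.12 and 0.04 ± 0.12 under the WT label. The entry with the ID 100504489, which has no symbol in the reference, gave 1.09 ± 0.12 and -0.01 ± 0.12. Plac9b and Gm9780, another near-identical pair, had 3.31 and 3.18 under the KO label and -0.47 and -0.49 under the WT label at medians under 1 CPM. By edgeR the adjusted p of the difference was 0.122 for Entpd4, Entpd4b and 100504489, 0.426 for Plac9b and 0.501 for Gm9780.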

How the data were processed

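Epidermal RNA from 16 libraries, 4 in each of the groups WT ZT4, KO ZT4, WT ZT8 and KO ZT8, was analysed. The authors deposited raw counts per gene, whole numbers listed by Entrez ID. The submitters' processing notes name GRCm38 (mm10), featureCounts, STAR 2.7.10a and Trim Galore. Which annotation and which strand option were used is not given in the sources used. Symbols came from RefSeq (GRCm38.p6) for 25275 IDs; the 1904 others held 4.65% of the counts and stayed in the tests.

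Counts were filtered with edgeR's filterByExpr, scaled by TMM and tested with edgeR 4.0.16 (R 4.3.3), quasi-likelihood, robust, with Benjamini-Hochberg adjustment. CPM values are TMM-scaled. Scripts were tested on simulated data. DESeq2 1.42.0, limma 3.58.1, other scaling and filters, a term for sex-linked type, replicate block and libraries left out were tried. The comparison with ZT16 and ZT20 was added after seeing the data. All replicate pairs differed beyond counting noise. P-values measure the spread between these libraries.

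The members and gene lists were chosen with earlier results of these data known. Genes were named by rule: the 15 largest rises and 15 largest falls among called genes averaging 1 CPM or more, predicted and sex-linked genes left out, every measured clock gene, up to 4 called genes of each list by p (or 2 by level, where none was called), the 5 smallest p for the difference between labels, and Col14a1; some genes that this rule names are not reported here. Members of the S phase, G2 and M, immediate early, G1 and folding lists named beyond these were picked after their values were seen.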

Additional observations from a re-analysis of the deposited data

Results flagged for a closer look

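In 5 of 126 groups of 8 libraries tested over 63 named genes, 1 library stood apart from the other 7 of its time by Dixon's test at 95%. Chance alone flags about 1 group in 20, so this count is not above chance, and the 5 are given as values only. All 5 were at ZT4, and 3 were in replicate 1 labelled WT. In that library Clock was at 105 CPM, with the other 7 at 75.2 to 87.1. Usp2 was at 6.38 CPM there, below the 10.5 to 13 of the others, and Csnk1d was at 125 CPM, below 139.7 to 143. None of these 3 genes passed the test of the step. Replicate 2 labelled WT had Mcm4 at 47 CPM, above the 39 to 42 of the others and still below the lowest library of ZT8. Replicate 3 labelled WT had Rnu2-10 at 0.678 CPM, below 1.57 to 2.19.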

How the results depend on the processing

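The step called 1312 to 2105 genes under other scaling, filters, tools, covariates and the fit of all 48 libraries, beside 1557 in the main test. It called 79 in the 7 libraries with Xist, 71 of them shared, and 1092 in the 9 with Y-linked expression, 778 of them shared. For the WT label the count of 279 became 573 with DESeq2, 473 with a term for sex-linked type and 170 without replicates 3 and 4 labelled WT at ZT4. For the KO label 446 became 842 with DESeq2 and 736 with that term. The difference between labels became 10 with DESeq2 and 3 without those replicates. Leaving out 1 library at a time gave 1073 (without replicate 4 labelled WT at ZT8) to 2029 (without replicate 1 labelled WT at ZT4) for the step, 164 to 289 for the WT label, 192 (without replicate 3 labelled KO at ZT4) to 822 for the KO label and 0 to 3 for the difference. The difference between the midday and night steps ranged from 594 to 882 genes and their sum from 2186 to 3645. The cause was not tested. With replicate numbers as a block the step called 1534 genes, 283 and 466 within the labels and 0 for the difference; correlations of same-numbered libraries ran from -0.4 to 0.47, above 0.1 in 16 of 24 pairs, so the numbers are not taken to pair them. No named gene that was called reversed its sign in these fits. All 22 G2 and M genes stayed called in each single-library omission, the S phase count was 15 to 19 and the immediate early count 14 to 22; in the libraries with Xist alone the counts were 14, 2 and 4, and in those with Y-linked expression 22, 17 and 19. Genes under 1 CPM, 91 of the calls, rest on few reads.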
